A study of Mus musculus with 28 samples.

Results

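Hepatic nuclear receptors were followed across mouse fibroblasts, fibroblasts converted toward hepatocytes and adult hepatocytes. The 10 genes were taken by name as the receptors for bile acids, foreign compounds, fatty acids and oxysterols, their shared partner and their close relatives: Nr1h4, Nr5a2, Nr0b2, Nr1i2, Nr1i3, Ppara, Pparg, Nr1h3, Rxra and Esrrg. They are 10 of 23712 gene rows, and all 10 passed the filter on low counts. Nr0b2 and Nr5a2 passed it only through the Hep libraries, so their direction against Hep was fixed in advance. The rule that names them uses no measured value, but members and gene lists were chosen with earlier results of these data known. RNA sequencing was available for 28 libraries from C57BL/6 mice. The induced hepatocyte-like (iHep) cells had been made from mouse embryonic fibroblasts (MEF) with retroviruses built on the pGCDNsam backbone that carried Hnf4a together with Foxa1 (6 libraries), Foxa2 (4) or Foxa3 (6). Cells given the same factor pairs were also sampled at 48 h, with 2 libraries for each pair. In 2 further libraries the Foxa3 carried a mutation named del2. Their titles give 48 h, their stage label gives iHep, and they are called 48 h Foxa3 del2 here. Hepatocytes (Hep, 2 libraries) had been isolated with collagenase from the livers of 10-week-old mice, and the untreated MEF (2 libraries) came from embryos at 13.5 days. No group with an empty virus or with Hnf4a alone was analysed here. The counts are per gene, so transcripts from the viruses and from the cells' own Hnf4a and Foxa genes cannot be told apart. The labels do not say whether libraries of a group came from separate cultures or animals, so the p-values measure only the spread between these libraries.

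Nuclear receptors are transcription factors, many of which are switched by a small lipophilic ligand. RXR alpha, encoded by Rxra, pairs with FXR (Nr1h4), PXR (Nr1i2), CAR (Nr1i3), LXR alpha (Nr1h3) and the PPAR proteins, and these pairs bind DNA as heterodimers. In liver, bile acids activate FXR, which induces SHP (Nr0b2). SHP has no DNA-binding domain and holds back other receptors, among them LRH-1 (Nr5a2), an activator of bile acid synthesis genes. PXR and CAR respond to drugs and other foreign compounds. PPAR alpha drives fatty acid oxidation in fasting, LXR alpha senses oxysterols, and PPAR gamma, known above all from fat cells, is low in healthy adult liver. ERR gamma (Esrrg) is an orphan receptor of oxidative metabolism.

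Nr1i2 and Nr1i3 encode close relatives with overlapping ligands and target genes. Nr1i2 was called higher in iHep than in 48 h cells with every Foxa factor and Nr1i3 with none. The 250 bases before the annotated start of each gene are therefore shown, in the direction of transcription, from RefSeq on GRCm38.p6 (Nr1i2 at chr16:38294825-38295074, minus strand, and Nr1i3 at chr1:171213720-171213969, plus strand). Capitals mark matches to a forkhead motif.
Nr1i2: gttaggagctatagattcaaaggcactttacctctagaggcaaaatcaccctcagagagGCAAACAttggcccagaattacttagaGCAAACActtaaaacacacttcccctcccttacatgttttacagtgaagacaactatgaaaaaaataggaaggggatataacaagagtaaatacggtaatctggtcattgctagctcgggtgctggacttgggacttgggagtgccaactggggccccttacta
Nr1i3: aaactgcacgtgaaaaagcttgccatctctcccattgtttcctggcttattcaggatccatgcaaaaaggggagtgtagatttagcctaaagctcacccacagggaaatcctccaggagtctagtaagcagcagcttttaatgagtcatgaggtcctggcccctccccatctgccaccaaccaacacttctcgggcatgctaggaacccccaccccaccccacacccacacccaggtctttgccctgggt
The searched motifs were the forkhead forms TGTTTAC and TGTTTGC, the nuclear receptor core AGGTCA and the HNF1 core GTTAAT, each on both strands. The window of Nr1i2 held TGTTTGC at 2 places on the opposite strand, beginning 191 and 164 bases before the start, and the window of Nr1i3 held none of the 4 motifs. Among 32851 RefSeq windows of the same length, 3.17% held TGTTTAC, 4.30% TGTTTGC, 14.02% AGGTCA and 6.43% GTTAAT. All 10 genes matched, with 18 windows between them. Nr1h4 and 1 of 2 windows of Nr5a2 held AGGTCA and GTTAAT, 2 of 3 windows of Pparg and 1 of 2 windows of Rxra held AGGTCA, and the windows of Nr0b2, Ppara, Nr1h3 and Esrrg held none. These matches describe letters in a window and show no binding.

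Assigned reads ranged from 14592820 to 51743266 per library, with the Hep libraries lowest. The introduced genes were present as labelled: Foxa1 averaged 1375 CPM (counts scaled to a common library size) in iHep Foxa1 cells, Foxa2 1971 CPM in iHep Foxa2 cells and Foxa3 1347 CPM in iHep Foxa3 cells. Hnf4a averaged 367, 189 and 865 CPM in iHep Foxa1, Foxa2 and Foxa3 cells and 67.2 to 81.3 CPM in the 48 h groups, against 1006 CPM in Hep and 0.0952 CPM in MEF. The sum of 10 hepatocyte markers was 2352 to 32187 CPM in the iHep libraries, against 218268 to 237114 CPM in Hep and 181 to 335 CPM in MEF, and that of 10 fibroblast markers was 84.5 to 627 CPM in iHep and 38086 to 39272 CPM in MEF. The libraries fall into sets that the labels do not name. The small nuclear RNA Rn7sk stood above 10 CPM in 14 libraries (all 6 of the 48 h libraries with full-length factors, replicates 4 to 6 of iHep Foxa1 and replicates 2 to 6 of iHep Foxa3) and below it in the other 14. All iHep Foxa2, Hep, MEF and del2 libraries were in the low set, so set and group are partly mixed. The 48 h groups with full-length factors share no set with MEF or with iHep Foxa2. Comparisons of those groups cannot tell library set from stage by the compared libraries alone. Values within a set are given where they differ. Between the high and low sets of iHep Foxa1, 5587 genes were called and no member (edgeR adjusted p at least 0.0638). The share of all genes tested is not given for this fit. Nr0b2 and Esrrg had no counts in these cells and could not be called. The absence of calls does not show that the members are free of a set difference. In the high set of iHep Foxa1, Nr1i2 was -1.52 ± 0.62 (edgeR adjusted p = 0.0638) and Nr1h4 -2.34 ± 1.22 (0.147) from the low set on the log2 scale. In the high set of iHep Foxa3, Ppara was 1.28 from the low set, which holds 1 library there.

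Adult hepatocytes expressed 8 of the 10 receptors above fibroblasts, by edgeR's quasi-likelihood test with Benjamini-Hochberg adjustment at 0.05. Of these, Nr0b2 was called by edgeR (adjusted p = 0.00152) but not by DESeq2's Wald test (0.226). Nr0b2 and Nr5a2 had passed the low-count filter only through Hep. Of all 16499 genes tested, 56.9% were called in that comparison, and the median log2 difference was 8.78 over the members and -0.29 over all genes. On the FPKM scale, which divides by transcript length and so permits genes to be set side by side, Nr1i3 stood highest in Hep (66.4 ± 13.6 FPKM, mean ± SD, n = 2), followed by Nr1h3 (62.0 ± 1.09), Rxra (56.3 ± 4.09), Nr1i2 (47.7 ± 3.32) and Nr1h4 (45.3 ± 6.70). Nr1i3 overlapped with Nr1h3 and Nr1i2 with Nr1h4, while Rxra lay below both Nr1h3 libraries and above both Nr1i2 libraries. Ppara (16.6 ± 0.672 FPKM), Nr0b2 (11.6 ± 0.247) and Nr5a2 (10.1 ± 0.431) formed a middle tier that did not overlap. Pparg (2.65 ± 0.898 FPKM) and Esrrg (0.450 ± 0.0566 FPKM) were lowest. The last pair is also the pair that was not called: Pparg had 6.98 and 10.8 CPM in Hep, against 10.4 and 4.57 CPM in MEF (log2 difference 0.25 ± 0.63 SE, edgeR adjusted p = 0.761), and Esrrg had 4.16 and 4.73 CPM in Hep, against 9.39 and 5.85 CPM in MEF (-0.78 ± 0.59, edgeR adjusted p = 0.283). The Pparg libraries overlapped and those of Esrrg did not; limma on FPKM called Esrrg lower in Hep (-0.69 on its own scale, adjusted p = 6.39e-06).

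**Figure D1:**
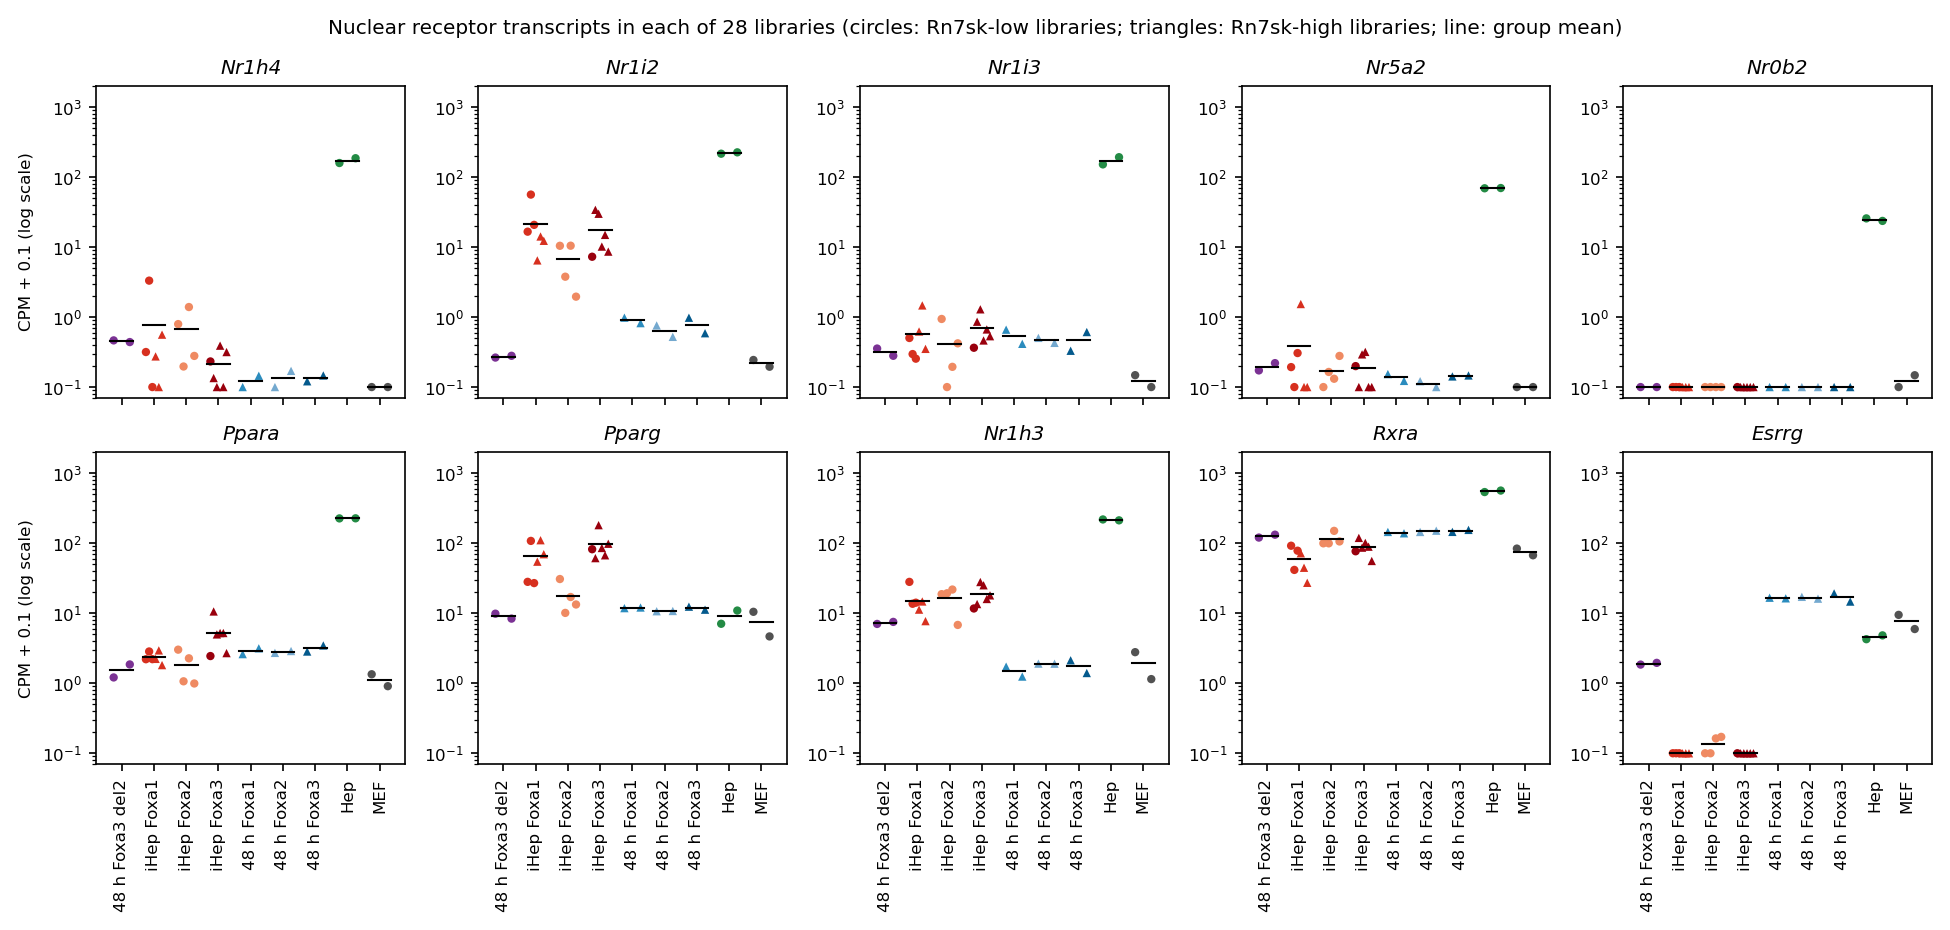
Level of each receptor in every library, in CPM with 0.1 added on a log axis, by group from 48 h Foxa3 del2 at the left to MEF at the right. Points are libraries, circles from the low and triangles from the high Rn7sk set, and lines are group means. Pparg is the receptor whose iHep Foxa1 and Foxa3 libraries all lie above Hep and MEF, and Esrrg the one at 0 counts in those same libraries.

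At 48 h no member was called against MEF. The call rate over all genes was 5.25%, 5.48% and 5.21% for Foxa1, Foxa2 and Foxa3, that is 867, 904 and 859 genes. These counts fell to 13 to 133, 17 to 124 and 18 to 134 genes when any 1 library of the compared groups was left out. At an unadjusted edgeR p under 0.05, 4, 3 and 3 of the 10 members passed, beside 3881, 3930 and 3871 of all 16499 genes. The median log2 difference of the members was 1.27, 1.26 and 1.36, against 0.04 to 0.06 over all genes. Rxra, the shared partner, had 145 and 139 CPM with Foxa1, 145 and 151 with Foxa2 and 145 and 155 with Foxa3, against 83.8 and 67.3 CPM in MEF. Every 48 h library lay above both MEF libraries, with log2 differences of 0.91 to 0.99 and edgeR adjusted p of 0.131 to 0.166. Esrrg likewise lay at 14.6 to 19.1 CPM in the 48 h libraries, against 9.39 and 5.85 CPM in MEF (1.11 to 1.14, edgeR adjusted p = 0.257 to 0.273), and Nr1i2 at 0.422 to 0.881 CPM against 0.144 and 0.0952 CPM. The number called here turned on the test: DESeq2's Wald test and limma on FPKM both called Esrrg higher in all 3 groups (adjusted p at most 0.00952), and fits of each 48 h group with MEF alone called 4 members each, beside 39.7%, 39.7% and 40.2% of all genes in those fits (5697, 5738 and 5810). The 48 h comparisons share the same MEF libraries. Library set and stage cannot be told apart in them, since these 48 h libraries are all of the high set and MEF of the low. In bulk RNA, fewer cells with a transcript and less of it per cell cannot be told apart.

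Against MEF, 5, 3 and 6 members were called in iHep cells made with Foxa1, Foxa2 and Foxa3, of which 4, 2 and 5 were higher. Background rates were 39.9%, 30.7% and 46.6%, so the counts as such lie near or a little above the rate of all genes. The members' median log2 difference was 3.07, 2.20 and 3.50, beside 0.08, 0.06 and 0.05 over all genes. Against the 48 h cells with the same factors, 5, 3 and 5 were called (3, 2 and 3 higher), beside background rates of 42%, 40.1% and 40.6%. Without MEF replicate 2 the genes called against MEF numbered 3930, 2905 and 4858, where all libraries gave 6586, 5068 and 7689, and without MEF replicate 1 the Foxa1 and Foxa2 comparisons gave 4305 and 3177. Without 1 of the 48 h libraries, the genes called against 48 h cells numbered 4046 to 4077 (Foxa1), 3647 to 3720 (Foxa2) and 4083 to 4087 (Foxa3), where all gave 6926, 6619 and 6696. Nr1i2 and Nr1h3 were higher and Esrrg lower in every one of these 6 comparisons, and Pparg was higher in the 4 that involved Foxa1 or Foxa3.

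**Figure D2:**
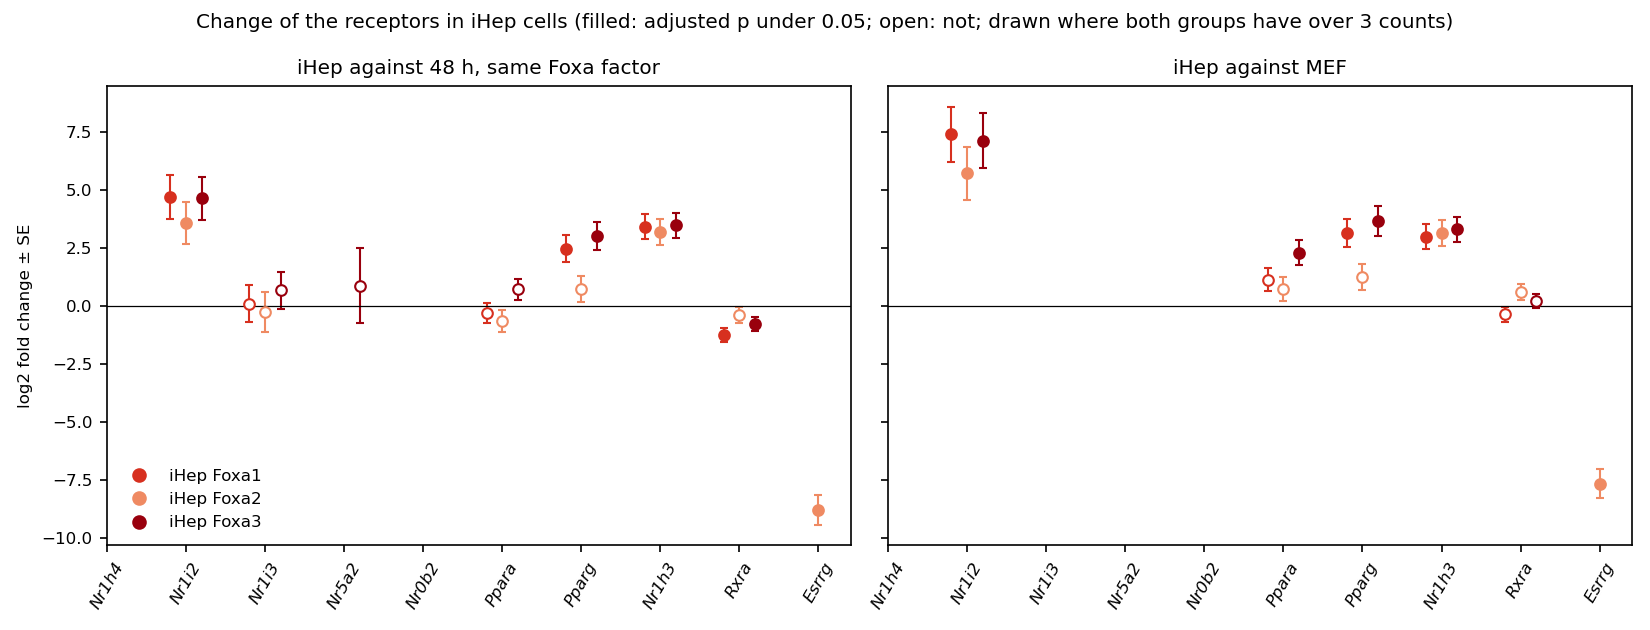
Log2 fold change with its standard error for each receptor in iHep cells against 48 h cells with the same factors and against MEF, drawn where both groups held more than 3 counts. Filled points have an adjusted p under 0.05. Nr1i2 and Nr1h3 lie to the higher side in every comparison drawn, between 2.99 and 7.41, while Rxra lies between -1.26 and 0.59.

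Nr1i2, the PXR gene and a sensor of foreign compounds, rose with every Foxa factor. Its level was 6.35 CPM in the lowest iHep Foxa1 library, 15.3 at the median and 56.1 in the highest. The iHep Foxa2 libraries had 10.3, 3.67, 10.4 and 1.86 CPM, and the iHep Foxa3 libraries ran between 7.18 and 33.9 CPM with a median of 12.4. The 48 h libraries had 0.881 and 0.719 CPM with Foxa1, 0.659 and 0.422 with Foxa2 and 0.878 and 0.488 with Foxa3, while Hep had 216 and 226 CPM and MEF 0.144 and 0.0952 CPM, which is 3 and 2 counts. Every iHep library was above every 48 h and MEF library and below both Hep libraries. The log2 difference from 48 h cells was 4.71 ± 0.93 with Foxa1 (edgeR adjusted p = 0.000365), 3.59 ± 0.90 with Foxa2 (0.0035) and 4.66 ± 0.93 with Foxa3 (0.000369). The Foxa2 call was lost without replicate 2 of its 48 h group (3.19, edgeR adjusted p = 0.0606). From MEF the differences were 7.41 ± 1.18, 5.73 ± 1.15 and 7.14 ± 1.18 (edgeR adjusted p = 4.08e-05, 0.000641 and 4.34e-05), sizes that rest on 5 counts in MEF. Within the low set alone the Foxa3 difference from MEF was 5.82 (edgeR adjusted p = 0.00709), from 1 iHep library.

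Nr1i3, the CAR gene, was not called against 48 h cells with any Foxa factor. It had 0.155 to 1.37 CPM in iHep Foxa1, 0 to 0.84 in iHep Foxa2 and 0.265 to 1.19 in iHep Foxa3 libraries, against 0.230 to 0.560 CPM in the 6 full-length 48 h libraries, 152 and 192 CPM in Hep and a total of 1 count in MEF. The iHep and 48 h ranges overlapped, with log2 differences of 0.10 ± 0.80, -0.25 ± 0.86 and 0.69 ± 0.80 for Foxa1, Foxa2 and Foxa3 (edgeR adjusted p = 0.938, 0.842 and 0.519). Against MEF the counts of 63 (Foxa1), 35 (Foxa2) and 106 (Foxa3) gave ratios of 18.6 (exact 95% interval 3.22 to 747), 12.4 (2.09 to 504) and 25.3 (4.44 to 1008), intervals that cover counting error only. The fit called Foxa1 and Foxa3 (edgeR adjusted p = 0.034 and 0.0166), and both calls were lost without either MEF library (0.101 and 0.219 for Foxa1, 0.0634 and 0.145 for Foxa3), in the low set alone (0.207 and 0.291) and with library set as a term (0.104 and 0.126), and that of Foxa1 also without its replicate 5 (0.0591).

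Nr1h4, Nr5a2 and Nr0b2, the genes of FXR, LRH-1 and SHP, stayed far below Hep in every iHep group. In iHep cells Nr1h4, the FXR gene, had 0.217, 3.22, 0, 0.174, 0 and 0.461 CPM with Foxa1, 0.694, 0.0966, 1.29 and 0.179 CPM with Foxa2, and 0 to 0.290 CPM with Foxa3. Hep had 159 and 186 CPM and MEF 0 counts. Replicate 2 of iHep Foxa1 supplied 82 of that group's 104 counts, and 4 of 16 iHep libraries had none. With 3 counts over both MEF libraries taken as the floor, iHep cells were at least 10.3-fold (Foxa1), 8.04-fold (Foxa2) and 1.51-fold (Foxa3) higher, and Hep at least 2404-fold higher. Against 48 h cells, which held 2, 3 and 3 counts with Foxa1, Foxa2 and Foxa3, the ratios were 30.1 (exact 95% interval 8.12 to 252), 17.2 (5.64 to 85.5) and 3.28 (0.964 to 17.3), with intervals of counting error only. All iHep Foxa2 libraries lay above their 48 h libraries, and the other 2 groups overlapped with theirs. No iHep group was called against MEF (edgeR adjusted p = 0.0587, 0.0971 and 0.327) or against 48 h cells (0.0507, 0.0856 and 0.531). The Foxa1 values lay close to the threshold: the comparison with MEF passed with the library set term (0.0367) and without iHep Foxa1 replicate 3 (0.0362) or 5 (0.0417), and that with 48 h cells passed with the replicate block (0.0464) and without replicate 1, 3, 4 or 5 (0.0308 to 0.0441).

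Nr5a2, the LRH-1 gene, had 40 counts in all in the iHep Foxa1 libraries, of which replicate 4 gave the highest level, 1.43 CPM, with 0.206 CPM next. The totals were 8 counts in iHep Foxa2 and 15 in iHep Foxa3, against 69.0 and 69.6 CPM in Hep and 0 counts in MEF, and no iHep group was called against MEF (edgeR adjusted p = 0.0987, 0.403 and 0.28), although DESeq2's Wald test called Foxa1 (adjusted p = 0.0388). Nr0b2, which encodes SHP and is itself induced by FXR, had 0 counts in all 24 libraries of iHep, 48 h and del2 cells, against 25.6 and 23.5 CPM in Hep and 1 count in MEF. With 3 counts per iHep group taken as the floor, Nr0b2 was at least 1160-fold (Foxa1), 968-fold (Foxa2) and 1439-fold (Foxa3) lower than in Hep on the CPM scale. These differences were called by edgeR (adjusted p at most 0.000238) and not by DESeq2's Wald test (0.0589 to 0.0785).

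Among the fatty acid receptors, Pparg rose with Foxa1 and Foxa3 and Ppara stayed far below Hep. Pparg, best known as the regulator of fat cell formation, had a lowest level of 26.9, a median of 62.1 and a highest level of 110.4 CPM in iHep Foxa1 libraries. The iHep Foxa2 libraries had 30.7, 10.0, 17.0 and 13.2 CPM, and iHep Foxa3 libraries 61.2 CPM at the lowest, 83.8 at the median and 181 at the highest. The 48 h libraries held 10.6 to 12.3 CPM, Hep 6.98 and 10.8 CPM, and MEF 10.4 and 4.57 CPM. On this scale all 12 iHep Foxa1 and Foxa3 libraries were thus above every 48 h, Hep and MEF library, whereas iHep Foxa2 overlapped with all 3. The iHep Foxa2 mean was 199% of the Hep mean here and 393% per assigned read. The log2 difference from MEF was 3.15 ± 0.61 with Foxa1 (edgeR adjusted p = 0.000332) and 3.68 ± 0.63 with Foxa3 (7.21e-05), and 1.25 ± 0.57 with Foxa2 was not called (0.101). Against Hep it was 2.89 ± 0.61 (0.000312), 3.43 ± 0.63 (6.52e-05) and, for Foxa2, 0.99 ± 0.57 (0.136), although limma on FPKM called the last (1.55, adjusted p = 0.00727). Against 48 h cells it was 2.48 ± 0.58 with Foxa1 (0.00177), 0.74 ± 0.55 with Foxa2 (0.289) and 3.03 ± 0.60 with Foxa3 (0.000375). On the FPKM scale Pparg was the highest of the 10 members in iHep Foxa1 (36.9 ± 19.3, n = 6) and iHep Foxa3 (55.3 ± 24.5, n = 6), while in iHep Foxa2 it came second (10.4 ± 5.54, n = 4) to Rxra (22.8 ± 4.86).

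Ppara, the fasting regulator of fatty acid oxidation, had 1.72 to 2.85 CPM in iHep Foxa1, 0.893 to 2.92 in iHep Foxa2 and 2.35 to 10.5 in iHep Foxa3 libraries, against 2.51 to 3.37 CPM in 48 h libraries, 226 and 227 CPM in Hep and 1.24 and 0.809 CPM in MEF. The iHep and 48 h ranges overlapped for each Foxa factor, and no comparison of iHep with 48 h cells was called (log2 differences -0.29 ± 0.43, -0.64 ± 0.46 and 0.74 ± 0.45, edgeR adjusted p = 0.618, 0.278 and 0.203). Against MEF the Foxa3 difference of 2.31 ± 0.53 was called (edgeR adjusted p = 0.00112). Within the low set alone, which holds 1 iHep Foxa3 library, it was 1.15 and was not (0.206).

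Nr1h3, the oxysterol sensor LXR alpha, rose with each Foxa factor. It ran from 7.62 through a median of 13.8 to 27.98 CPM in iHep Foxa1 libraries and from 11.6 through 16.9 to 27.8 CPM in iHep Foxa3 libraries, and the iHep Foxa2 libraries had 18.7, 19.2, 21.7 and 6.71 CPM. The 48 h libraries had 1.15 to 2.03 CPM, Hep 219 and 212 CPM, and MEF 2.68 and 1.05 CPM. All 16 iHep libraries were above every 48 h and MEF library and below both Hep libraries. The log2 differences from MEF were 2.99 ± 0.54, 3.15 ± 0.55 and 3.32 ± 0.55 (edgeR adjusted p = 0.000136, 0.000167 and 4.28e-05), and those from 48 h cells 3.42 ± 0.54, 3.20 ± 0.54 and 3.48 ± 0.54 (3.73e-05, 0.000115 and 2.6e-05). The 48 h groups themselves lay within 0.43 of MEF on the log2 scale and were not called (edgeR adjusted p at least 0.696).

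Rxra, the partner of most of these receptors, was the one member with a high level in every group. It had 27.1 to 92.1 CPM in iHep Foxa1 libraries with a median of 58.2, 99.7, 99.6, 150.3 and 106 CPM in iHep Foxa2 libraries, and 55.7 to 119 CPM in iHep Foxa3 libraries with a median of 87.9. The 48 h libraries had 139 to 155 CPM, Hep 539 and 566 CPM and MEF 83.8 and 67.3 CPM. Against 48 h cells it was lower with Foxa1 (log2 difference -1.26 ± 0.30, edgeR adjusted p = 0.00191). With Foxa3 it was -0.77 ± 0.30 (0.0481), a call lost without either 48 h Foxa3 library (0.152 and 0.213), without iHep Foxa3 replicate 1, 3, 5 or 6 (0.0617 to 0.0857) and with the replicate number as a block (0.0633). With Foxa2 it was not called (-0.38 ± 0.33, edgeR adjusted p = 0.377), nor was any iHep group against MEF (adjusted p = 0.208 to 0.591).

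Esrrg, the ERR gamma gene, went the other way. No read of it was counted in any of the 12 iHep Foxa1 and Foxa3 libraries, and iHep Foxa2 held 4 counts in 2 libraries. The 48 h libraries had 14.6 to 19.1 CPM, Hep 4.16 and 4.73 CPM, and MEF 9.39 and 5.85 CPM. With 3 counts per group again as the floor, Esrrg was at least 774-fold lower in iHep Foxa1 and 994-fold lower in iHep Foxa3 than in 48 h cells with the same factors. It was at least 360-fold and 446-fold lower than in MEF, and at least 210-fold and 260-fold lower than in Hep (edgeR adjusted p at most 2.2e-07 for these 6). In iHep Foxa2 the log2 difference was -8.77 ± 0.64 from 48 h cells (1.12e-06) and -7.65 ± 0.63 from MEF (2.9e-06). With a term for the library set the first of these differences could not be tested. Only iHep Foxa1 and Foxa3 hold libraries of both sets, and neither had a count of Esrrg.

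Set against adult hepatocytes, 9 of 10 members were lower in each iHep group, and Pparg was higher with Foxa1 and Foxa3. Among the 9, Nr0b2 and Nr5a2 had passed the low-count filter only through Hep, which fixed their direction in advance. The background rates were 60.1%, 60.6% and 61.9%, and the members' median log2 difference was -7.26, -6.95 and -6.82 for Foxa1, Foxa2 and Foxa3, against 0.42, 0.42 and 0.39 over all genes. Of the members lower than in Hep, Rxra, Nr1i2 and Nr1h3 had the largest shares of the Hep mean in each iHep group: iHep Foxa1, Foxa2 and Foxa3 cells had 10.7%, 20.6% and 15.9% of the Hep mean of Rxra, 9.51%, 2.97% and 7.88% of Nr1i2, and 6.88%, 7.69% and 8.63% of Nr1h3. Without iHep Foxa1 replicate 2, at 56.1 CPM the highest, the Foxa1 share of Nr1i2 was 6.32%. Ppara reached 1.003%, 0.766% and 2.25%, and Nr1h4, Nr1i3 and Nr5a2 stayed between 0.0652% and 0.417%, where the Foxa1 shares of Nr1h4 (0.393%) and Nr5a2 (0.417%) were 0.0988% without replicate 2 and 0.0862% without replicate 4. Pparg stood at 744%, 199% and 1077%. The log2 differences of Nr1i2 were -3.39 ± 0.61, -5.07 ± 0.73 and -3.66 ± 0.61 (edgeR adjusted p = 5.23e-05, 3.55e-06 and 1.94e-05). These percentages depend on the scaling. So do the fold bounds of Nr1h4, Nr0b2 and Esrrg that involve Hep. Those of Nr1h4 and Nr0b2, where Hep is higher, and those of Esrrg against Hep are smaller per assigned read. TMM gave the Hep libraries an effective size of 0.522 and 0.55 of their assigned reads, with Alb alone at 7.77% and 7.21% of those reads. Per assigned read the shares become 20.7%, 40.6% and 31.3% for Rxra, 17.95%, 5.86% and 15.5% for Nr1i2 and 13.2%, 15.0% and 16.9% for Nr1h3. Those of Pparg become 1396%, 393% and 2092%. DESeq2's size factors moved the median of all genes by -0.21, -0.24 and -0.23 in these comparisons and changed the call of no member.

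**Figure D3:**
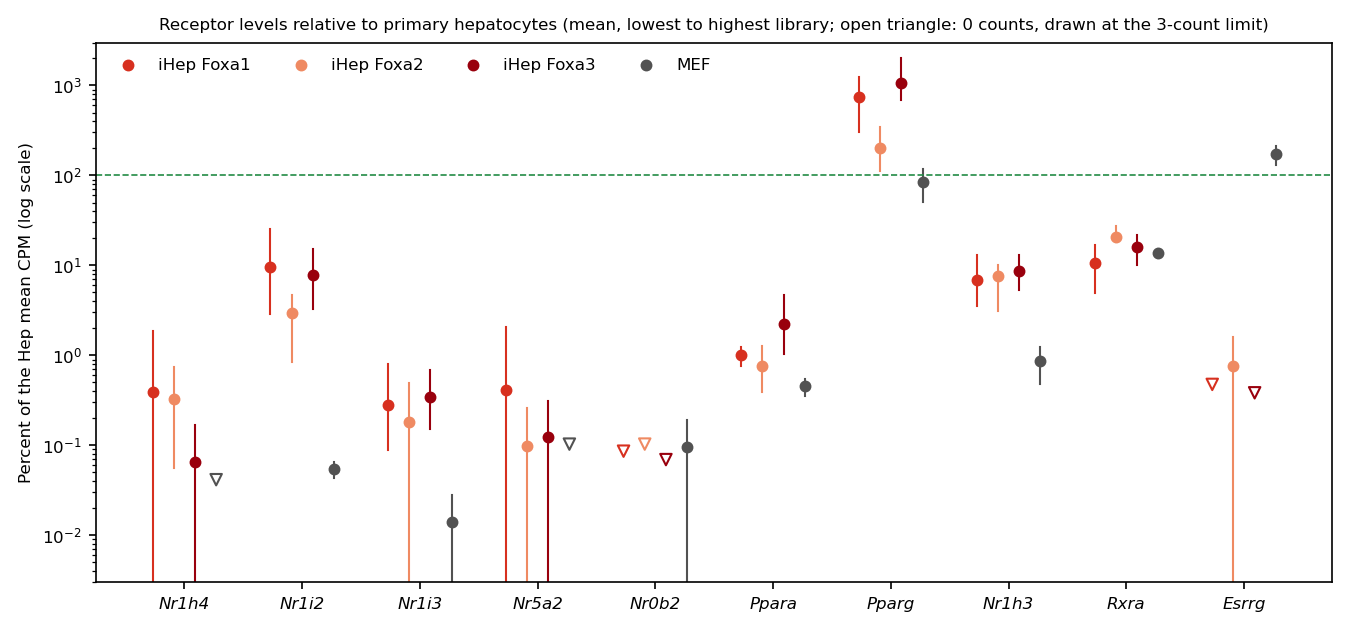
Level of each receptor in iHep cells and MEF as a percentage of the Hep mean, on a log axis. Points are group means, bars run from the lowest to the highest library, and open triangles mark the limit of 3 counts where a group held none. Rxra, Nr1i2 and Nr1h3 lie between 2.97% and 20.6% in iHep cells, Pparg lies above 100%, Nr0b2 sits at the limit in each iHep group and Esrrg in the Foxa1 and Foxa3 groups.

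Between iHep groups, Pparg separated Foxa2 from Foxa3: all 4 Foxa2 libraries (10.0 to 30.7 CPM) lay below all 6 Foxa3 libraries (61.2 to 181 CPM), with a log2 difference of -2.44 ± 0.43 (edgeR adjusted p = 0.000778). It was -2.07 with library set as a term (0.0229) and -2.19 within the low set, where 1 Foxa3 library remains (0.142). In this comparison 3 members were called, beside a background of 31.1%. The others were Ppara (-1.55 ± 0.37, edgeR adjusted p = 0.00454, but 0.157 with the set term and 0.735 in the low set) and Esrrg, which rests on 4 counts in iHep Foxa2, was at least 1.98-fold higher there (edgeR adjusted p = 0.0285) and was not called without iHep Foxa2 replicate 3 (0.102) or 4 (0.107). Nr1i2 was 1.41 lower in Foxa2 than in Foxa3 cells on the log2 scale and narrowly missed the threshold (edgeR adjusted p = 0.0597, and 0.0271 by DESeq2's Wald test). Foxa1 against Foxa2 gave 2 calls at a background of 11%: Pparg at 1.90 ± 0.42 (0.0151) and Rxra at -0.94 ± 0.25 (0.0243). Both were lost in the low set alone (0.391 and 0.408), with the replicate block (0.0662 and 0.0618) and without iHep Foxa2 replicate 4 (0.0545 and 0.0615), and that of Rxra also without iHep Foxa1 replicate 5 (0.0569) or iHep Foxa2 replicate 3 (0.0841). Nr1i2 at 1.68 ± 0.57 missed the threshold (edgeR adjusted p = 0.0578, and 0.015 by DESeq2's Wald test). Foxa1 against Foxa3 gave 1 call at a background of 8.32%, Ppara at -1.16 ± 0.32 (0.0273). It was lost without iHep Foxa3 replicate 2 (0.0855), 4 (0.0513) or 5 (0.0504), and was -0.01 in the low set and -1.32 (0.0393) in the high set; with the set term the value was not called (0.0737). Whether the change after 48 h differed between Foxa factors was tested as an interaction and passed for no member (edgeR adjusted p at least 0.306).

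The del2 libraries had 727 and 737 CPM of Hnf4a and 506 and 612 CPM of Foxa3, against 87.1 and 75.5 CPM of Hnf4a and 67.7 and 77.2 CPM of Foxa3 in 48 h Foxa3 cells. The introduced factors thus stood severalfold above the 48 h libraries with the full-length protein. Their hepatocyte marker sum was 765 to 845 CPM and their fibroblast marker sum 8035 to 9476 CPM, between those of 48 h Foxa3 (155 to 158 and 25179 to 26327 CPM) and iHep Foxa3 cells (10727 to 26337 and 84.5 to 253 CPM). Nr1h3 was 6.94 and 7.43 CPM in del2, against 2.03 and 1.30 CPM in 48 h Foxa3 and 11.6 to 27.8 CPM in iHep Foxa3 cells. Nr1i2 was 0.164 and 0.180 CPM in del2, below the 48 h (0.878 and 0.488 CPM) and iHep Foxa3 ranges, and Esrrg was 1.75 and 1.86 CPM, against 19.1 and 14.6 CPM at 48 h. Against 48 h Foxa3 the background was 2.98% (491 genes), and fewer genes were called when any 1 of the 4 libraries was left out. Nr1h3 was called higher (2.11 ± 0.56, edgeR adjusted p = 0.0399) and Esrrg lower (-3.22 ± 0.62, 0.0182). Neither call survived the removal of any of the 4 libraries, which leaves 1 library in a group. With the library set term Nr1h3 was not called (edgeR adjusted p = 0.0521). Esrrg could not be tested with that term, because iHep Foxa1 and Foxa3, the groups that hold both sets, had no counts of it. Macrophages also express Nr1h3, and the sum of 9 macrophage markers was 25.96 to 28.7 CPM in del2, against 3.47 to 3.69 CPM in 48 h Foxa3 and 0.0661 to 1.14 CPM in iHep Foxa3 libraries. Its part in the Nr1h3 difference was not tested. Nr1h4 had 37 counts in del2 against 3 in 48 h Foxa3, a ratio of 10.7 (exact 95% interval 3.38 to 54.1), and was not called (edgeR adjusted p = 0.42). Against iHep Foxa3, at a background of 32.7% (5387 genes, and 2830 or 2857 without del2 replicate 1 or 2), Nr1i2 (-6.63 ± 1.06, edgeR adjusted p = 5.82e-05) and Pparg (-3.41 ± 0.62, 0.000223) were lower and Esrrg at least 105-fold higher. Ppara (-1.83, 0.00634) and Nr1h3 (-1.37, 0.0278) were lower too, and neither was called without del2 replicate 1 (0.123 and 0.179) or within the low set (0.433 and 0.483), nor Nr1h3 without del2 replicate 2 (0.147). Stage, mutation and library set cannot be told apart in these comparisons.

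Genes known to be controlled by these receptors were then counted from lists chosen from textbook knowledge, with earlier results of these data known. The counts below are to be read beside the shares of all genes called, in either direction, which were 39.9%, 30.7% and 46.6% against MEF and 60.1%, 60.6% and 61.9% against Hep for Foxa1, Foxa2 and Foxa3. Of 12 bile acid receptor targets tested (14 listed), all 12 were lower in each iHep group than in Hep, with median log2 differences of -11.52, -12.62 and -11.66. Of the 14, 12 averaged at least 1 CPM in Hep and 2 in each iHep group. A gene near 0 in the other groups, in this list or those below, passes the low-count filter only through Hep. Its direction against Hep was thus fixed in advance. Abcb11, the bile salt export pump, averaged 0.0726, 0.307 and 0.0442 CPM in iHep Foxa1, Foxa2 and Foxa3 cells, against 2150 CPM in Hep. Slc10a1, the bile acid uptake carrier, averaged 0.108 to 0.115 CPM against 661 CPM. Against MEF, 2 targets were higher with each Foxa factor, Cyp27a1 and Abcb4. Cyp27a1, a mitochondrial enzyme of bile acid synthesis, averaged 91.8 ± 60.6, 29.6 ± 14.3 and 74.7 ± 30.4 CPM in iHep Foxa1, Foxa2 and Foxa3 cells, against 716 ± 41.6 CPM in Hep and 1.15 ± 0.208 CPM in MEF. The log2 differences from MEF were 6.32 ± 0.80, 4.69 ± 0.75 and 6.02 ± 0.79 (edgeR adjusted p = 2.41e-06, 6.44e-05 and 2.71e-06). Abcb4, the canalicular phospholipid flippase, averaged 9.57, 7.77 and 26.9 CPM in the iHep groups, against 393 CPM in Hep and 0.430 CPM in MEF (edgeR adjusted p at most 0.00196 against MEF).

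Of 16 xenobiotic receptor targets, 9, 8 and 6 were higher and 0, 1 and 1 lower than in MEF with Foxa1, Foxa2 and Foxa3, at median log2 differences of 4.09, 2.70 and 2.75. That is 9, 9 and 7 of 16 called, beside 39.9%, 30.7% and 46.6% of all genes. Against Hep 2 were higher in each group and 13, 14 and 14 lower. The higher pair was Gsta1 and Abcb1a. Gsta1, a glutathione transferase, averaged 391 ± 129, 208 ± 110 and 410.0 ± 71.2 CPM in iHep Foxa1, Foxa2 and Foxa3 cells, against 7.89 ± 1.48 CPM in Hep and 0.143 ± 0.136 CPM in MEF. Every iHep library lay above both Hep libraries (log2 differences from Hep 5.63 ± 0.58, 4.72 ± 0.56 and 5.70 ± 0.58, edgeR adjusted p at most 2.54e-07). Abcb1a, the drug efflux pump P-glycoprotein, averaged 73.7 ± 84.5, 69.8 ± 58.1 and 73.4 ± 32.8 CPM, against 16.4 ± 3.29 CPM in Hep. Its 3 calls against Hep (edgeR adjusted p = 0.0351 to 0.0469) were all lost with DESeq2's size factors (0.0525 to 0.0712) and without either Hep library (0.12 to 0.209), and 1 or more each without iHep Foxa1 replicate 2 (0.0897), iHep Foxa2 replicate 1 (0.161) or 3 (0.0595) and iHep Foxa3 replicate 1 (0.0583). The classical PXR target Cyp3a11 averaged 2.09, 0.0272 and 1.58 CPM in iHep Foxa1, Foxa2 and Foxa3 cells, against 3363 CPM in Hep, and the CAR target Cyp2c29 had 3 counts in iHep Foxa1 and none in the other iHep groups, against 1983 CPM in Hep. Gsta1, Cyp3a11 and Cyp2c29 have close paralogs, among which reads may have been split or misassigned.

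**Figure D4:**
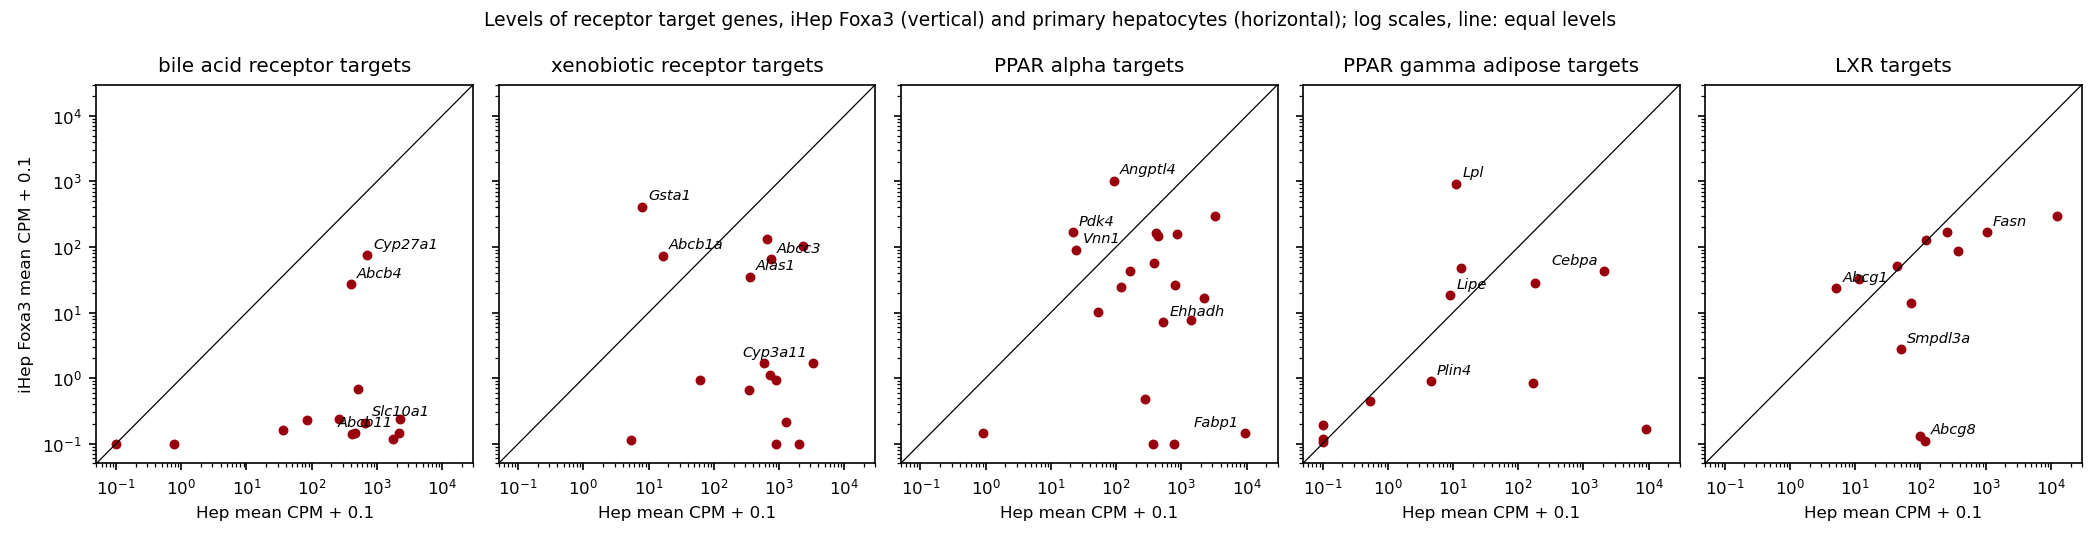
Mean level of each gene of 5 target lists in iHep Foxa3 cells (vertical) against Hep (horizontal), in CPM with 0.1 added on log axes, with a line of equality. Most genes lie below the line, and those above it include Lpl at 923 against 11.04 CPM, Angptl4 at 1023 against 92.1 CPM and Gsta1 at 410.0 against 7.89 CPM.

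Of 20 PPAR alpha targets, 9, 7 and 11 were higher and 3, 2 and 3 lower than in MEF with Foxa1, Foxa2 and Foxa3, and 17 were lower than in Hep in each group. Those above Hep were Pdk4 and Vnn1, joined with Foxa3 by Angptl4. Pdk4, a kinase that spares glucose, averaged 437 ± 223, 640.4 ± 406 and 169 ± 57.3 CPM in iHep Foxa1, Foxa2 and Foxa3 cells, against 21.6 ± 0.698 CPM in Hep and 8.79 ± 2.54 CPM in MEF (log2 difference from Hep 4.34 ± 0.64, 4.89 ± 0.67 and 2.97 ± 0.58, edgeR adjusted p at most 0.000137). Vnn1, a pantetheinase, averaged 208, 192 and 91.0 CPM against 24.4 CPM in Hep; its Foxa3 call (1.90, edgeR adjusted p = 0.0326) was lost with DESeq2's size factors (0.0539), with the library set term (0.0591), without iHep Foxa3 replicate 5 (0.0665) and without either Hep library (0.174 and 0.116). Angptl4, a secreted inhibitor of lipoprotein lipase, averaged 563 ± 621 CPM with Foxa1 and 1023 ± 390 CPM with Foxa3 but 29.9 ± 40.8 CPM with Foxa2, against 92.1 CPM in Hep and 3.23 CPM in MEF. Its Foxa3 call against Hep (3.47 ± 1.25, edgeR adjusted p = 0.0197) was lost with the library set term (1.20, 0.258) and without either Hep library (0.0788 and 0.142). The fatty acid carrier gene Fabp1 held 4, 1 and 8 counts in the iHep groups against 9402 CPM in Hep.

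Of 10 PPAR gamma targets of fat tissue tested (12 listed), 4, 3 and 3 were higher and 1, 2 and 2 lower than in MEF, and 1 was higher and 5 lower than in Hep in each group. The 1 above Hep was Lpl, which encodes lipoprotein lipase. It averaged 573 ± 246, 224 ± 109 and 923 ± 401 CPM in iHep Foxa1, Foxa2 and Foxa3 cells, against 11.04 ± 1.35 CPM in Hep and 62.1 ± 72.5 CPM in MEF. The difference from Hep was 5.70 ± 0.87, 4.34 ± 0.82 and 6.38 ± 0.90 (edgeR adjusted p = 6.72e-06, 9.09e-05 and 2.2e-06). The MEF libraries had 113 and 10.8 CPM, so the Foxa2 difference from MEF (1.85, edgeR adjusted p = 0.0476) was 0.92 without MEF replicate 1 (0.405) and was also not called without iHep Foxa2 replicate 1, 2 or 4 (0.0615 to 0.102). The lipid droplet gene Plin4 was lower than in MEF in each iHep group (-5.70, -3.09 and -5.11, edgeR adjusted p at most 0.00982), and the Foxa2 call was lost without MEF replicate 1 (-1.48, 0.37). The sum of 8 fat cell markers, which includes Plin4, was 0.706 to 7.41 CPM in iHep libraries, against 2.74 to 7.35 CPM in Hep and 8.61 to 46.4 CPM in MEF, and Plin4 made up nearly all of the MEF sum (1149 counts, against 1 count each of Adipoq and Lep). In iHep Foxa1, Foxa2 and Foxa3 cells Adipoq had 1 count each and Lep none, while Cidec, a lipid droplet protein, had 23, 2 and 61 counts and Cidea, its relative, 47, 6 and 16, both at 0 in MEF. The part of fat cell markers in the Pparg level was not tested.

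Of 13 LXR targets, 1, 2 and 3 were higher and 3 each lower than in MEF, and the members of the list had a median log2 difference of -0.25, -0.36 and -0.29. With 4, 5 and 6 of 13 called, the list was near the shares of all genes (39.9%, 30.7% and 46.6%). Abcg1, a cholesterol exporter, averaged 15.8, 11.7 and 23.5 CPM in iHep Foxa1, Foxa2 and Foxa3 cells, against 5.002 CPM in Hep and 0.906 CPM in MEF. It was called against MEF with each factor (log2 difference 4.12, 3.68 and 4.69, edgeR adjusted p = 0.000803, 0.00276 and 0.000238), the Foxa2 call being lost without MEF replicate 1 (0.065). Abcg8, part of the sterol exporter of the bile canaliculus, held 5, 1 and 2 counts in the iHep groups, against 116 CPM in Hep. Fasn, the fatty acid synthase, was lower than in MEF with each factor (-1.44, -1.92 and -0.89, edgeR adjusted p = 0.000197, 3.68e-05 and 0.0105), and the Foxa3 call was lost without either MEF library (0.0557 and 0.101).

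Among 33 other nuclear receptors tested (38 listed), 7, 8 and 7 were higher and 6, 2 and 7 lower in iHep cells than in MEF, with medians near 0 (-0.08, 0.21 and -0.02). The 13, 10 and 14 called of 33 were near the shares of all genes (39.9%, 30.7% and 46.6%). Rarg, a retinoic acid receptor, averaged 39.4, 75.2 and 43.2 CPM in iHep Foxa1, Foxa2 and Foxa3 cells, with Hep at 3.95 CPM below them and MEF at 189.7 CPM above. Ppard, the remaining PPAR gene, averaged 70.2, 31.4 and 73.7 CPM against 7.23 CPM in Hep (log2 difference 3.28 ± 0.35, 2.12 ± 0.33 and 3.35 ± 0.35, edgeR adjusted p at most 1.08e-05). Of 16 receptor cofactors, 4, 3 and 7 were higher and 0, 0 and 1 lower than in MEF. Ppargc1a, a coactivator of PPAR and ERR proteins, averaged 14.9 ± 11.8, 9.88 ± 7.92 and 9.98 ± 1.73 CPM, against 36.2 ± 13.97 CPM in Hep and 1.48 ± 0.209 CPM in MEF (log2 difference from MEF 3.33, 2.74 and 2.75, edgeR adjusted p = 0.000408, 0.00293 and 0.00137; 0.0531 for Foxa2 without MEF replicate 2).

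Markers of other cell types were also summed in these libraries. Macrophage markers (9 of the 10 listed are in the files) summed to 0 to 1.14 CPM in iHep libraries, against 348 to 479 CPM in Hep and 19.0 and 246 CPM in MEF replicates 1 and 2, and the Kupffer cell marker Clec4f was at 0 counts in all iHep groups and in MEF. Nr1h3 and Pparg, which macrophages also express, were higher in MEF replicate 1, the one with the lower macrophage sum. The part of macrophage transcripts in the receptor levels of Hep and MEF was not tested. Enterocyte markers (8 genes) summed to 234 to 3712 CPM in iHep Foxa1, 62.3 to 397 in iHep Foxa2 and 257 to 529 in iHep Foxa3 libraries, against 109 to 113 CPM in Hep and 4.47 to 5.65 CPM in MEF. Cdx2, a regulator of intestinal identity, averaged 86.8, 32.8 and 56.4 CPM in the iHep groups and had 0 counts in Hep and MEF, while Cdx1 had 1 count each in iHep Foxa1 and Foxa3 cells and none in iHep Foxa2 cells. The rest of the iHep sums came mostly from Lgals4, a lectin (756, 112 and 93.9 CPM, against 21.5 CPM in Hep and 42 counts in MEF), and Vil1, the microvillus protein villin (338, 55.2 and 238.3 CPM, against 3 counts in Hep and 1 in MEF). Fabp2, the intestinal fatty acid carrier, averaged 0.370, 0.326 and 0.213 CPM in the iHep groups, against 89.6 CPM in Hep and 0 counts in MEF, and Sis, the brush border sucrase, had 0, 0 and 3 counts. Cdh17, an intestinal cadherin, averaged 28.8, 2.42 and 1.32 CPM, against 0 counts in Hep and 3.97 CPM in MEF. Pparg and Nr1i2 are also expressed in intestine, and the part of this in their levels was not tested. Bile duct markers (5 genes) summed to 662 to 4079 CPM in iHep Foxa1, 1175 to 4308 in iHep Foxa2 and 552 to 1913 in iHep Foxa3 libraries, against 11.6 to 16.4 CPM in Hep and 1038 to 1371 CPM in MEF, where Spp1 alone averaged 1153 CPM. The keratin gene Krt19 averaged 1151, 905 and 567 CPM in iHep Foxa1, Foxa2 and Foxa3 cells, against 0.613 CPM in Hep and 25.9 CPM in MEF. Krt7 averaged 383, 362 and 33.6 CPM, against 0.184 CPM in Hep and 5.83 CPM in MEF. Epcam, an epithelial adhesion gene, averaged 93.8, 42.6 and 7.76 CPM, against 2 counts in Hep and 3 counts in MEF. Sox9 averaged 113, 62.8 and 116 CPM, against 6.36 CPM in Hep and 19.8 CPM in MEF. Spp1 averaged 232, 1271 and 489 CPM, against 6.72 CPM in Hep, and lay below its MEF mean with Foxa1 and Foxa3. The part of bile duct markers in the receptor levels was not tested.

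Patterns most like those of the receptors were sought among 13066 genes by Pearson's r of log2 CPM, which over 28 libraries mostly follows the differences between groups. For Nr1i2 they were Mtss1 (r = 0.963), Fgf1 (0.958) and the clotting factor gene F5 (0.948), and over the 16 iHep libraries alone Ms4a8a (0.879) and Sema4b (0.829) were among them. For Pparg they were Oit1 and Lpar3 (0.926 each) and St3gal6 (0.920) over all libraries, and Serpinf2 (0.932), Spink1 (0.925) and Golph3l (0.921) over iHep libraries. For Nr1h3 they were Suox (0.957) and Tufm (0.955), and for Esrrg, at 0 counts in 14 of 16 iHep libraries, Abca9 (0.974), Ldb2 (0.971) and Erg (0.971). These correlations were not tested, and within the iHep libraries the correlations also carry the difference between library sets.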

How the data were processed

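RNA was extracted with RNeasy and sequenced from libraries of a stranded Illumina mRNA kit, per the labels' protocols. Reads were aligned with BWA 0.7.12 to mm9, per the submitters' processing notes; which program counted the reads, and on which annotation, is not stated in the labels or headers. The deposited files hold expected counts and FPKM per transcript, as made by the authors. Transcripts were named through RefSeq, expected counts were summed per gene and rounded, and unnamed transcripts held 0.609 to 3.21% of reads. Of 23712 gene rows, 16499 passed filterByExpr and were fitted over all 28 libraries with edgeR 4.0.16 (TMM, robust quasi-likelihood test, 19 residual degrees of freedom, R 4.3.3). Calls used a Benjamini-Hochberg adjusted p under 0.05 over all genes. Standard errors of edgeR's log2 differences were back-calculated as the absolute difference divided by the square root of the F statistic. They are approximate, above all for genes with few counts. Alternatives were DESeq2 1.42.0, limma 3.58.1 on log2(FPKM + 1), other filters, scalings and transcripts, a replicate block, library sets and left-out libraries. The test was checked on simulated counts. Genes beyond the 10 receptors were named by a rule of smallest adjusted p or highest level within their list; Cdx1, Lep and Adipoq are named as defining markers. Some genes that the rule names are not reported here. The members and lists were chosen with earlier results of these data known. Counting intervals are exact at 95% and, like the floor of 3 counts, cover counting error only. Assigned reads per library (14592820 to 51743266) set the precision of low genes. Promoters came from RefSeq on GRCm38.p6, a later build than mm9.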

Additional observations from a re-analysis of the deposited data

Results flagged for a closer look

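Of 25 combinations of a receptor and an iHep group tested, 8 had 1 library that lay farther from the rest than Dixon's 95% critical value allows, and in each it was the highest. For normally distributed values such a gap arises in about 1 group in 20. The rule was applied here to untransformed CPM, some of it resting on few counts, so that rate need not hold for these groups. In iHep Foxa1 cells these were replicate 2 for Nr1i2 (56.1 CPM, with 20.7 CPM next) and Nr1h4 (3.22 CPM, with 0.461 next), replicate 5 for Nr1i3 (1.37 CPM, with 0.522 next), replicate 4 for Nr5a2 (1.43 CPM, with 0.206 next) and replicate 1 for Nr1h3 (27.98 CPM, with 14.6 next). In iHep Foxa3 cells they were replicate 2 for Ppara (10.5 CPM, with 5.12 next) and replicate 3 for Pparg (181 CPM, with 98.3 next). In iHep Foxa2 cells it was replicate 3 for Rxra (150.3 CPM, with 106 next).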

How the results depend on the processing

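Of 2772 refits of a member, 2649 stayed on the same side of the threshold, 72 lost and 51 gained a call. None changed sign where either fit was called, and signs were not compared where neither was. Against MEF at 48 h, where no member was called, groups alone called 4 with each factor, DESeq2's Wald test 1 each, limma 1, 1 and 2 for Foxa1, Foxa2 and Foxa3, and the replicate block 1 with Foxa2 and with Foxa3. Foxa1 against Foxa2 iHep cells had 2 member calls, and 0 with the block, the library set term, the low set or groups alone (0 to 3 leaving out libraries). Foxa1 against Foxa3 had 1, and 2 with the block or high set, 0 with the set term, low set or groups alone (0 to 2 leaving out libraries). Foxa2 against Foxa3 had 3, and 1 with the set term and 0 in the low set. The del2 cells had 2 calls against 48 h Foxa3, and 1 by the most abundant transcript or limma, 0 with the set term, 7 with groups alone and 0 leaving out any library; against iHep Foxa3 they had 5, and 3 in the low set (3 to 5 leaving out libraries). With the set term Esrrg could not be tested in the del2 comparison with 48 h Foxa3. A set alone also holds fewer libraries, and the causes of these changes were not tested. The replicate numbers were checked for pairing within each comparison. In none did every pair correlate above 0.1, and the block moved 10 of 180 member results across the threshold. The 48 h groups with full-length factors were not set against each other, so pairing among them was not tested. Over all genes, the 48 h calls against MEF (867, 904 and 859) became 1738, 1769 and 1782 with the block, 5697, 5738 and 5810 with groups alone, 2079, 2081 and 2027 by DESeq2 and 2078, 2102 and 2096 by limma, and leaving out libraries 13 to 133, 17 to 124 and 18 to 134. Foxa1 against Foxa2 went to 228, 155, 4, 3 and 3076 with block, set term, low set, groups alone and DESeq2, against 1811 (301 to 3464 leaving out libraries). Foxa1 against Foxa3 (1373) gave 2074, 58, 2532, 83 and 2260 with set term, low set, high set, groups alone and DESeq2 (719 to 2344 leaving out libraries). Foxa2 against Foxa3 (5139) gave 800 with the set term and 279 in the low set, and del2 against 48 h Foxa3 (491) gave 779, 3810, 9853, 1277 and 1288 with block, set term, groups alone, DESeq2 and limma (49 to 83 leaving out libraries). Leaving iHep libraries out of the percentages of Hep was added after seeing the data. Of 13234 refits of 47 other genes, 13 changed sign where either fit was called. Lpl in Hep against MEF was -3.29 without MEF replicate 1 and 0.12 without MEF replicate 2. With the set term, Foxa2 against 48 h cells was -4.14 in iHep Foxa1 and -0.46 in iHep Foxa2, and Lipe was 1.62 in iHep Foxa2 against 48 h and 0.039 in iHep Foxa2 against Foxa3 (0.42 in the low set). Foxa2 in iHep Foxa3 against 48 h was -4.46 in the high set. By limma, Nr6a1 against Hep was 9.3e-05, 0.22 and 0.16 with Foxa1, Foxa2 and Foxa3, and Nr3c1 was -0.27 in Hep against MEF and 0.34 and 0.24 in iHep Foxa2 and Foxa3 against Hep.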
